A study of Mus musculus with 20 samples.

Results

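The 32 heat shock and cold-inducible genes of the mouse heart described here were chosen by name and were all found among the 24059 genes counted. They comprise 8 genes of the HSP70 and HSP110 families, 6 genes of HSP90 and its cochaperones, 6 HSP40 genes, the mitochondrial pair Hspd1 and Hspe1, 6 small heat shock proteins or partners, the transcription factors Hsf1 and Hsf2, and the cold-inducible RNA-binding proteins Cirbp and Rbm3. RNA came from the left ventricular free wall of C57BL/6 mice, all of them adult males of about 9 to 13 weeks, after perfusion of the heart with Tyrode solution. The 4 groups, with 5 libraries each, were CardioGRKO at ZT0, GRflox at ZT0, CardioGRKO at ZT12 and GRflox at ZT12. ZT0 is the start of the light phase and ZT12 the start of the dark phase. In every mouse Nr3c1, the gene of the glucocorticoid receptor, had floxed alleles. CardioGRKO mice also carried a Cre recombinase that a cardiomyocyte promoter, that of alpha myosin heavy chain, drives, and GRflox mice were littermates without it. The presence of Cre and the loss of the receptor are therefore not separated by these groups. The question was whether chaperone and cold-inducible transcripts differ with the cardiomyocyte glucocorticoid receptor or with the time of day.

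Heat shock proteins are chaperones that hold, fold or hand on other proteins. HSP70 works in cycles of ATP with HSP40 partners and nucleotide exchange factors such as HSP110, and passes clients such as steroid hormone receptors to HSP90 through cochaperones. The transcription factor HSF1 binds repeats of a short unit, the heat shock element, in the promoters of many of these genes when misfolded protein accumulates. Small heat shock proteins are abundant in striated muscle, where BAG3 links them to HSP70. CIRBP and RBM3 are RNA-binding proteins whose transcripts rise on mild cooling, and in mouse liver their levels follow the daily rhythm of body temperature.

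The libraries held 5854462 to 37648421 counted reads (median 23223656); replicate 1 of CardioGRKO at ZT0 had the fewest. The targeted gene Nr3c1 averaged 55.2 ± 3.51 CPM (reads of the gene scaled to library size) in CardioGRKO and 115 ± 6.11 CPM in GRflox at ZT0, and 51.0 ± 3.50 CPM in CardioGRKO and 107 ± 7.98 CPM in GRflox at ZT12 (SD, n = 5 each), with no overlap at either time. The 11 cardiomyocyte markers together made up 120954 to 150766 CPM of every library. The haemoglobin genes Hba-a1, Hba-a2, Hbb-bs and Hbb-bt were at 0 in all of them. Alas2, the other gene of the erythroid list, was detected, at 4.35 to 51.9 CPM in GRflox at ZT12. The cause of the zeros was not tested, and they are not a measure of blood in the tissue. All 32 genes of interest passed the filter on low counts, and the lowest count of any of them in a library was 10 reads, for Hspa1b. The labels do not say which libraries came from which animals, so p-values measure the spread between these libraries.

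Levels per length of transcript differed widely between the genes. Over all libraries, the small heat shock proteins led: Hspb7, a muscle-enriched small heat shock protein, averaged 1625 CPM per kb of exon, Cryab (alpha B-crystallin) 1595 CPM per kb and Hspb6 1130.2 CPM per kb. The constitutive HSP90 gene Hsp90ab1 followed with 795 CPM per kb, against 33.4 CPM per kb for its inducible counterpart Hsp90aa1. The constitutive HSP70 gene Hspa8 had 355 CPM per kb, whereas the stress-inducible HSP70 genes Hspa1a and Hspa1b had 3.35 and 3.68 CPM per kb, near the bottom of the 32. Only Hsf2 was lower, at 1.51 CPM per kb. Hsf1 had 7.60 CPM per kb, Cirbp 12.6 CPM per kb and Rbm3 9.25 CPM per kb. Exon lengths include all annotated transcripts, so genes with long minor transcripts are understated on this scale.

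Hspa1a and Hspa1b, which encode the same inducible HSP70 protein, varied more between libraries of 1 group, by the within-group SD, than the groups differed from each other. The summed level of both genes was 12.0, 131, 6.33, 2.52 and 2.92 CPM in replicates 1 to 5 of CardioGRKO at ZT0, against 8.05, 11.5, 39.1, 1.78 and 2.26 CPM in GRflox at ZT0. At ZT12 it was 45.6, 2.46, 14.6, 51.7 and 5.57 CPM in CardioGRKO, against 20.5, 2.76, 6.39, 27.3 and 10.6 CPM in GRflox. Each group held libraries with little of this RNA and libraries with a great deal, and the groups overlapped. The within-group SD was 1.72 for Hspa1a and 1.99 for Hspa1b on the log2 scale, in the top percentile of the 14007 genes tested. Reads of these genes are hard to assign: 61.7% of the 75-base windows of Hspa1a and 55.8% of those of Hspa1b also occur in transcripts of another gene, mainly of each other. The sum is therefore used for the slopes below, while comparisons between groups are given for each gene. Whether reads matching both genes were counted is not known, so the levels and the sum may be too low.

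Hsph1, Dnajb1, Hsp90aa1 and Dnaja1 also spread widely, whereas the remaining genes ranged from steady to moderately variable. Hsph1, the HSP110 nucleotide exchange factor, had a within-group SD of 0.67 on the log2 scale (percentile 97.9), Dnajb1, an HSP40 partner of HSP70, 0.56 (percentile 95.8), Hsp90aa1 0.52 (percentile 94.3) and Dnaja1, another HSP40, 0.51 (percentile 93.8). At the other end were Hspa9, the mitochondrial HSP70, at 0.06 (percentile 4.2) and the HSP40 gene Dnaja2 at 0.07 (percentile 7.6). The constitutive genes Hspa8 (0.23, percentile 73.6), Hsp90ab1 (0.18, percentile 63.0) and Hspd1 (0.14, percentile 51.9) lay between. So did Chordc1 (0.21, percentile 70.2) and Bag3 (0.19, percentile 64.7). The median SD was 0.20 over the 32 genes and 0.14 over all genes tested. Of the 32 genes, 6 lay above the 90th percentile and 10 below the 50th.

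**Figure D1:**
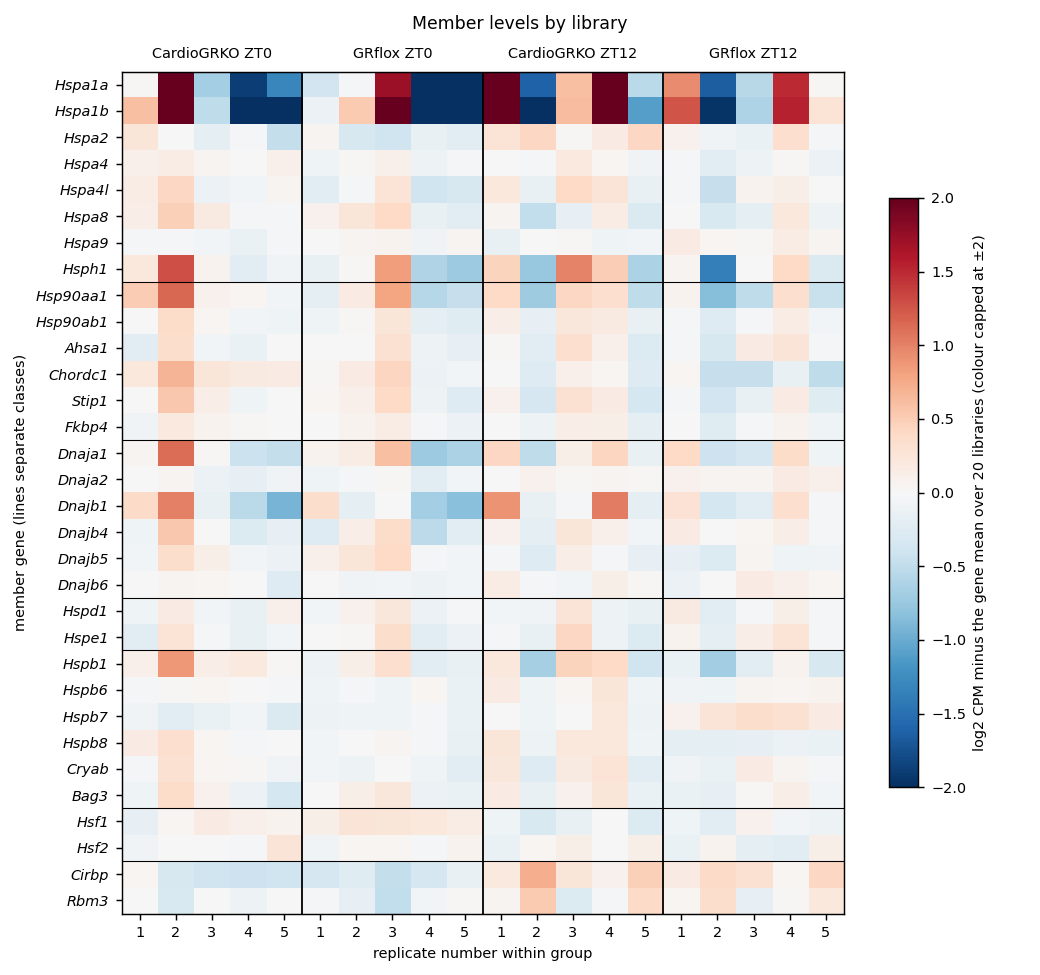
Levels of the 32 genes (rows, lines separating the classes) in each of the 20 libraries (columns, by group and replicate number) as log2 CPM minus the mean of the gene over all libraries, with the colour capped at 2 in either direction. Hspa1a and Hspa1b swing from deep blue to deep red inside every group, with Hsph1, Hsp90aa1, Dnaja1 and Dnajb1 swinging with them, while Cirbp is mostly blue at ZT0 and mostly red at ZT12.

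Promoter windows from RefSeq (GRCm38.p6, 250 bases before to 50 after the start site) were at hand for 25 of the 32 genes and were searched for units of the heat shock element, which are GAA or its complement TTC spaced by 2 bases. At least 2 adjoining units (GAANNTTC or TTCNNGAA) occurred in windows of 14 of the 25 genes, against 17% of 27025 genes with a window. At least 3 (GAANNTTCNNGAA, or TTCNNGAANNTTC on the other strand) occurred in 5 of the 25, namely Chordc1, Dnajb6, Hspd1, Hspe1 and Hsph1, against 0.662% of all genes; every match of 3 units is also a match of 2. The palindrome GNACANNNTGTNC of the glucocorticoid receptor occurred in 0 of the 25 and in 0.537% of all genes, on both strands; no match says only that these letters are not in these windows. The windows of 5 genes are shown up to base 30 after the start site, 5′ to 3′, with every run of at least 2 heat shock units in capitals: the Hspa1a and Hspa1b promoters because these genes varied most, and those of Hsph1, Chordc1 and Hspe1 because they hold 3 or more units and their transcripts moved with Hspa1a and Hspa1b.
Hspa1a, chr17:34972127-34972406, minus strand: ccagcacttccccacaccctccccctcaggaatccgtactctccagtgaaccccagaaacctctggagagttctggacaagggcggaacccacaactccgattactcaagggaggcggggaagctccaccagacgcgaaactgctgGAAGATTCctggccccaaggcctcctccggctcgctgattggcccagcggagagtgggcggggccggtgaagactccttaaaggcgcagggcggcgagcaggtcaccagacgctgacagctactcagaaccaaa
Hspa1b, chr17:34959209-34959488, minus strand: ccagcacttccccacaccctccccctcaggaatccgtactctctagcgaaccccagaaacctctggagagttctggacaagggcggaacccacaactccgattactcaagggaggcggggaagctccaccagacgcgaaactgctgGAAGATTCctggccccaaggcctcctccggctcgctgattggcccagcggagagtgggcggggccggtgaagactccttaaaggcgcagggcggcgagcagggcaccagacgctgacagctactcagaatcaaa
Hsph1, chr5:149636286-149636565, minus strand: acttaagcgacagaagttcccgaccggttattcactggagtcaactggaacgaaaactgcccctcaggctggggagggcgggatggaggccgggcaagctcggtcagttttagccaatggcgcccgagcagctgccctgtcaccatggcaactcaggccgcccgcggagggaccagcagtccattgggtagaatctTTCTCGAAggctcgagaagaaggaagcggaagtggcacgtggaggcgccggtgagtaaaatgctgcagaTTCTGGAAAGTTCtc
Chordc1, chr9:18292017-18292296, plus strand: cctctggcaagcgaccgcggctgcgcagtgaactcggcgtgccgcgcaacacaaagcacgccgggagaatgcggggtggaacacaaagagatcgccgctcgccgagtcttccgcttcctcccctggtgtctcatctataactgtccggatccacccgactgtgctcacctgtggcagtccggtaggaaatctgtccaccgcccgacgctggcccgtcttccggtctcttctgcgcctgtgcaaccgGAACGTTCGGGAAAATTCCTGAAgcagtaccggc
Hspe1, chr1:55087898-55088177, plus strand: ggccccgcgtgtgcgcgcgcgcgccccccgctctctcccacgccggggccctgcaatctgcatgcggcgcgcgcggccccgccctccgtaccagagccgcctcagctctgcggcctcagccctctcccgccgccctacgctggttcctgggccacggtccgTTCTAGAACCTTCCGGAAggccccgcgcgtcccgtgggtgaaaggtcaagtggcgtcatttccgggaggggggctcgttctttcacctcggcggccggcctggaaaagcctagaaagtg
The Hspa1a and Hspa1b windows have the same base at 276 of 280 positions (98.6%), with a pair of exact units at bases -104 to -97 in both. In Chordc1, which encodes an HSP90 cochaperone with CHORD domains, a run of units spans bases -4 to 18 around the start site. Hsph1, shown for 1 of its 2 start sites, has 3 units at 15 to 27 and a pair at -54 to -47. The run in Hspe1 lies at -89 to -72, in a stretch that Hspe1 shares with the divergent gene Hspd1. A match in these windows is a description of sequence and not evidence of binding. Dnajb6 and Hspd1 also hold 3 units, but their slopes on Hspa1a plus Hspa1b (below), 0.02 and 0.04, did not pass. Dnajb1 (0.27), Stip1 (0.12), Hspa4l (0.11), Ahsa1 (0.09) and Dnajb5 (0.07) rose with no adjoining units in their windows. Cirbp, Dnaja2, Hsf2, Hspa2, Hspa4 and Hspb7, also without such units, did not pass. A link between units and slopes was not tested.

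The levels of many chaperone transcripts rose together with Hspa1a and Hspa1b from library to library inside the groups. Per doubling of Hspa1a plus Hspa1b, 18 of 30 other genes rose and 1 fell at an adjusted p under 0.05 (edgeR quasi-likelihood test, Benjamini-Hochberg over 14005 genes). Of all genes, 6.05% passed, 2.87% rising and 3.18% falling. The median slope was 0.07 log2 units per doubling over the 30 genes and -0.00 over all genes, and 27 of the 30 slopes were above 0. This test was chosen after the levels had been seen.

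HSP40 and HSP110 partners had the steepest slopes. Dnaja1 had 68.5, 143, 66.9, 48.6 and 47.2 CPM in replicates 1 to 5 of CardioGRKO at ZT0 and 68.9, 73.0, 99.4, 39.8 and 42.4 CPM in GRflox at ZT0. At ZT12, Dnaja1 had 87.0, 46.1, 71.5, 88.6 and 59.0 CPM in CardioGRKO and 86.5, 49.1, 51.9, 84.9 and 62.0 CPM in GRflox. The library with the most Hspa1a plus Hspa1b of a group also had the most Dnaja1 in 3 of 4 groups. The slope of Dnaja1 was 0.27 ± 0.01 log2 units per doubling (SE, adjusted p = 3.73e-12 by edgeR).

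Hsph1 had 123, 259.7, 112, 92.2 and 102 CPM in CardioGRKO at ZT0 and 96.6, 109, 189.5, 70.0 and 64.8 CPM in GRflox at ZT0. At ZT12 it had 146, 63.3, 213, 150.2 and 68.9 CPM in CardioGRKO and 110.4, 41.2, 106, 141 and 86.9 CPM in GRflox. In replicate 3 of CardioGRKO at ZT12 Hsph1 was highest although Hspa1a and Hspa1b were not. Its slope was 0.31 ± 0.04 (adjusted p = 1.81e-05 by edgeR) and that of Dnajb1 0.27 ± 0.03 (adjusted p = 2.9e-06 by edgeR). Among the remaining HSP40 genes, Dnajb4 (0.12) and Dnajb5 (0.07) rose, whereas Dnaja2 and Dnajb6, at 0.02 each, did not pass.

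All 6 genes of HSP90 and its cochaperones rose with Hspa1a plus Hspa1b. The inducible Hsp90aa1 had a slope of 0.26 ± 0.02 (adjusted p = 2.9e-08 by edgeR), and that of the constitutive Hsp90ab1 was 0.09 ± 0.01 (adjusted p = 7.6e-06 by edgeR). Stip1, which carries clients from HSP70 to HSP90, rose by 0.12 per doubling, Chordc1 by 0.10, Ahsa1, which stimulates the ATPase of HSP90, by 0.09 and Fkbp4, a peptidyl-prolyl isomerase of steroid receptor complexes, by 0.05. Of the windows of Hsp90aa1, 42.8% also occur in transcripts of another gene, mainly a processed copy, so its counts are uncertain.

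Within the HSP70 family, the constitutive Hspa8 rose by 0.12 ± 0.01 (adjusted p = 4.57e-08 by edgeR) and the HSP110 relative Hspa4l by 0.11 ± 0.02 (adjusted p = 0.000291 by edgeR). Hspa4, a further HSP110 relative (0.03), Hspa9 (0.01) and Hspa2 (0.00), best known from the testis, did not pass. Hspe1, the cochaperonin of mitochondrial HSP60, rose by 0.07 ± 0.02 (adjusted p = 0.0199 by edgeR), and its partner Hspd1, at 0.04, did not pass (adjusted p = 0.069 by edgeR). For Hspa8 33.0% of windows, and for Hspd1 31.0%, also occur in other genes.

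Among the small heat shock proteins, Hspb1 rose by 0.16 ± 0.02 (adjusted p = 3.85e-05 by edgeR), Cryab by 0.06 ± 0.01 (adjusted p = 0.00532 by edgeR) and Hspb8 by 0.05 ± 0.01 (adjusted p = 0.000876 by edgeR), as did their partner Bag3 by 0.09 ± 0.01 (adjusted p = 6.33e-05 by edgeR). The muscle proteins Hspb6 (0.02) and Hspb7 (0.01), among the most abundant transcripts of the 32, did not pass. Neither heat shock factor passed, with slopes of 0.02 for Hsf1 and -0.02 for Hsf2. Of the windows of Hspb1, 46.4% also occur in a pseudogene.

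Of the 2 cold-inducible genes, Rbm3 fell and Cirbp did not pass. Rbm3 had 43.0, 34.9, 43.3, 39.9 and 43.0 CPM in CardioGRKO at ZT0 and 41.7, 38.2, 30.6, 41.3 and 43.7 CPM in GRflox at ZT0, and was lowest in both groups in the library with the most Hspa1a plus Hspa1b. At ZT12 Rbm3 had 44.6, 61.4, 35.6, 41.8 and 56.1 CPM in CardioGRKO and 43.9, 54.9, 38.3, 43.7 and 49.8 CPM in GRflox, with the highest value of each group in the library with the least Hspa1a plus Hspa1b. Rbm3 fell by 0.08 log2 units per doubling, with a slope of -0.08 ± 0.02 (adjusted p = 0.0131 by edgeR). Cirbp had a slope of -0.05 ± 0.02, which did not pass (adjusted p = 0.117 by edgeR).

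**Figure D2:**
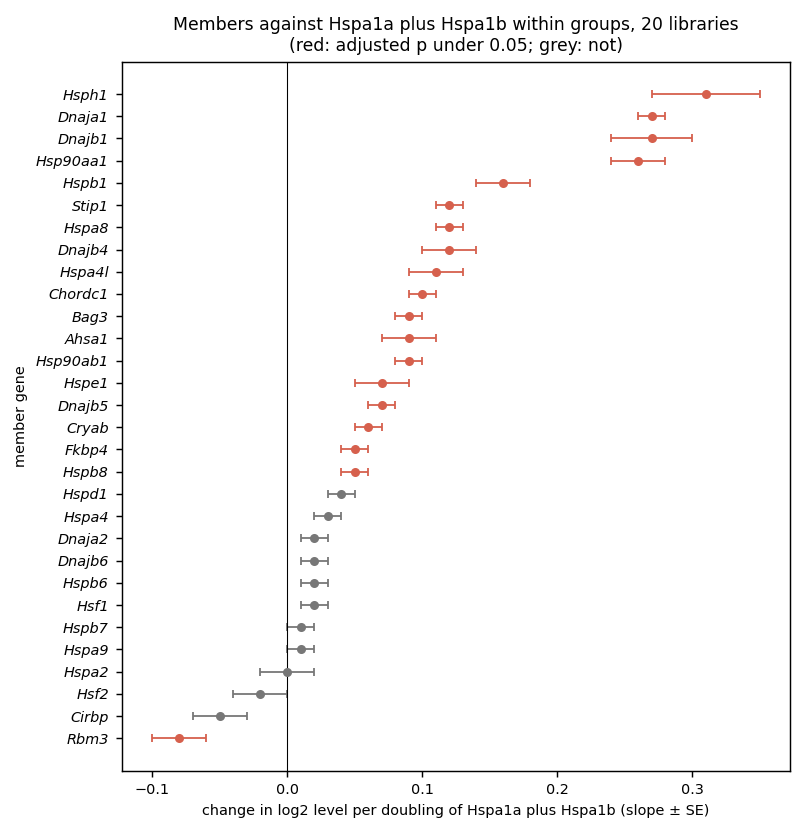
Change in log2 level per doubling of Hspa1a plus Hspa1b within groups (x axis, slope with SE) for 30 genes (y axis, in order of slope), fitted over 20 libraries, with red points for adjusted p under 0.05. Hsph1 at 0.31 is at the top and Rbm3 at -0.08 at the bottom.

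**Figure D3:**
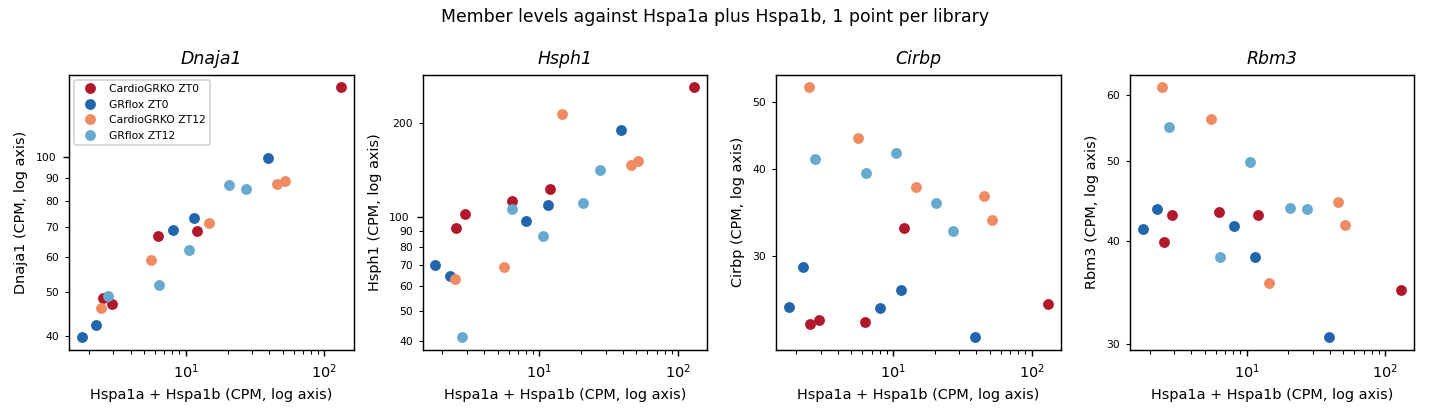
CPM of Dnaja1, Hsph1, Cirbp and Rbm3 (y axes, log scale) against the summed CPM of Hspa1a and Hspa1b (x axes, log scale), 1 point per library coloured by group. Dnaja1 climbs along 1 line from the library with 1.78 CPM of Hspa1a plus Hspa1b to the library with 131 CPM. For Cirbp the ZT12 libraries lie above the ZT0 libraries of the same genotype.

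When each library was left out in turn, 17 to 21 of the 30 genes passed. Over all genes the count fell to 423 without replicate 2 of CardioGRKO at ZT0, 464 without replicate 3 of GRflox at ZT0 and 525 without replicate 2 of CardioGRKO at ZT12, against 847 with every library. Without the 2 libraries farthest from the middle, replicate 2 of CardioGRKO at ZT0 and replicate 2 of CardioGRKO at ZT12, 12 of the 30 rose and 0 fell, where 145 genes passed in all (1.03% of those tested). Slopes of genes that then missed the threshold stayed close to their values with every library: Ahsa1 had 0.08, Fkbp4 0.05, Cryab 0.05, Hspb8 0.05 and Hspe1 0.08. Rbm3 then had a slope of -0.08 but missed the threshold (adjusted p = 0.174 by edgeR), as it did without replicate 3 of GRflox at ZT0 (-0.07, adjusted p = 0.0527 by edgeR) or without replicate 2 of CardioGRKO at ZT12 (-0.07, adjusted p = 0.0619 by edgeR).

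The 10 libraries of each time, fitted apart, gave 17 rising and 1 falling at ZT0, where 504 genes passed in all (3.69%), and 5 rising and 1 falling at ZT12, where 21 genes passed in all (0.153%). The 5 that passed at ZT12 were Dnaja1 (slope 0.23), Dnajb1 (0.27), Hsp90aa1 (0.30), Hspa8 (0.14) and Hspb1 (0.22), and the falling gene was Cirbp, at -0.12 ± 0.02 (adjusted p = 0.0323 by edgeR). Slopes of similar size at both times missed the threshold at ZT12 for Hsph1 (0.35 at ZT12, adjusted p = 0.11 by edgeR, against 0.29 at ZT0), Stip1 (0.13 and 0.11), Hspa4l (0.11 and 0.10), Chordc1 (0.10 at both) and Hsp90ab1 (0.09 at both). Other genes that missed it had unlike slopes. Dnajb4 had 0.06 ± 0.02 at ZT12 against 0.15 ± 0.02 at ZT0, and Dnajb5 0.04 ± 0.02 against 0.09 ± 0.01. Cryab went the other way, with 0.09 ± 0.02 at ZT12 against 0.05 ± 0.01 at ZT0. Cirbp had -0.01 ± 0.02 at ZT0. For no gene were the slopes at ZT0 and ZT12 tested against each other.

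Where 2.87% of all genes rose and 3.18% fell, 16 of 72 further chaperones, cochaperones and regulators tested rose with Hspa1a and Hspa1b. Of the 72, 1 fell and the others did not pass. Those that rose included Hspa1l, the third HSP70 gene of the same cluster on chromosome 17 (slope 0.15), the HSP90 cochaperones Ptges3 (0.08) and Cacybp (0.09), the HSP70 partner St13 (0.08) and the collagen chaperone Serpinh1 (0.10). The steepest named gene of these lists was Ier5, a known HSF1 target and regulator (0.24), and the gene that fell was Hspa12a (-0.07). Hspa1l is among the genes whose transcripts share windows with Hspa1a and Hspa1b.

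Other marker lists moved with the same axis, and their part in it was not tested. Of 14 immediate-early genes, which respond within minutes to stimulation or tissue handling, 3 rose, namely Atf3 (slope 0.32), Jun (0.14) and Btg2 (0.14), and their summed level ran from 366 to 694 CPM over the libraries. Of 10 macrophage markers 4 rose (Lyz2, C1qa, C1qb and C1qc, slopes 0.06 to 0.08), with sums of 332 to 499 CPM. Of 9 pericyte and smooth muscle markers 4 fell (Pdgfrb, Myh11, Cspg4 and Kcnj8, slopes -0.09 to -0.06), with sums of 1314 to 1802 CPM. None of 11 cardiomyocyte, 12 endothelial or 10 fibroblast markers passed in edgeR's test; at an unadjusted p under 0.05 there were 1, 6 and 1. Of 5 atrial cardiomyocyte markers tested, from a list of 6, 0 passed but 4 had an unadjusted p under 0.05, and all 5 slopes were above 0 with a median of 0.35. The slope was 0.45 ± 0.14 for Sln (adjusted p = 0.0517 by edgeR), 0.37 ± 0.12 for Myl4 (adjusted p = 0.0592), 0.35 ± 0.13 for Myl7 (adjusted p = 0.115) and 0.17 ± 0.06 for Nppa (adjusted p = 0.0646). The slopes of Sln, Myl4 and Myl7 were steeper than the 0.31 of Hsph1. The sum of the atrial list ran from 68.0 to 448 CPM over the libraries, and Bmp10 was at 0 in CardioGRKO at ZT0 and in GRflox at ZT12.

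No gene of the 32 was called between the genotypes at ZT0. By edgeR 0 of the 32 passed between CardioGRKO and GRflox, where 14.7% of all genes tested did; 2 had an unadjusted p under 0.05, and DESeq2 also called 0. Those 2 were Hspb8, at 0.15 ± 0.07 on the log2 scale (adjusted p = 0.16 by edgeR), and Hsf1, at -0.14 ± 0.06 (adjusted p = 0.162 by edgeR). The median log2 fold change was 0.08 over the 32 genes and -0.01 over all genes, and 23 of the 32 were above 0. Without replicate 2 of CardioGRKO at ZT0 the median was -0.01 and 14 of the 32 were above 0.

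The largest point estimates belonged to the genes with the widest spread. Hspa1a had 5.10, 60.0, 3.12, 1.36 and 2.03 CPM in CardioGRKO at ZT0 and 3.82, 4.91, 16.3, 0.857 and 1.21 CPM in GRflox at ZT0. The high mean of CardioGRKO came from replicate 2, and the other libraries overlapped with GRflox. The log2 fold change of Hspa1a was 1.49 ± 0.88 (adjusted p = 0.292 by edgeR), and an interval of 2 SE ran from -0.28 to 3.26, which includes changes of several fold. Without replicate 2 of CardioGRKO the direction turned, to -1.20 ± 0.90 for Hspa1a (adjusted p = 0.456 by edgeR) and -1.62 ± 0.99 for Hspa1b (adjusted p = 0.335 by edgeR). Dnaja1, at 0.23 with every library, and Dnajb1, at 0.34, were then at -0.18 and -0.09. For Hsph1 the same interval ran from -0.32 to 1.09, whereas for the steadier Hspa8 it ran from -0.18 to 0.32 and for Bag3 from -0.22 to 0.19.

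At ZT12, 3 of the 32 passed, where 21.1% of all genes tested did. Hspb8, a small heat shock protein that works with BAG3 in the removal of damaged proteins, had 794, 629, 784, 778 and 634 CPM in CardioGRKO and 593, 589, 602, 623 and 618 CPM in GRflox. The groups did not overlap, and 3 of the 5 CardioGRKO libraries lay well above the other 2. Those 3, replicates 1, 3 and 4, had 45.6, 14.6 and 51.7 CPM of Hspa1a plus Hspa1b. The other 2 had 2.46 and 5.57 CPM. Hspb8 rose by 0.26 ± 0.07 on the log2 scale in CardioGRKO (adjusted p = 0.00829 by edgeR).

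Hspb7 had 4486, 4225, 4479, 5178 and 4154 CPM in CardioGRKO at ZT12 and 4759, 5317, 5697, 5493 and 5017 CPM in GRflox at ZT12. Replicate 4 of CardioGRKO overlapped with GRflox and the other 4 lay below it. The log2 fold change was -0.22 ± 0.06 (adjusted p = 0.00847 by edgeR). Hspa9, which pulls imported proteins into mitochondria, had 952, 1047, 1077, 996 and 1014 CPM in CardioGRKO and 1180.3, 1082, 1076, 1168 and 1101 CPM in GRflox, with overlap between 2 libraries. Its log2 fold change was -0.14 ± 0.04 (adjusted p = 0.0174 by edgeR), and it missed the threshold without replicate 1 of CardioGRKO (adjusted p = 0.0646 by edgeR), without replicate 1 of GRflox (adjusted p = 0.054 by edgeR) and when only the 2 groups were fitted (adjusted p = 0.0528 by edgeR).

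Cell type markers differed between the genotypes beside these genes. Cardiomyocyte markers were lower in CardioGRKO for 7 of 11 genes at ZT0 and 9 of 11 at ZT12, and their sum at ZT12 ran from 120954 to 137709.8 CPM in CardioGRKO and from 147075 to 150766 CPM in GRflox. Endothelial markers were lower for 5 of 12 genes at each time. Of 10 fibroblast markers, 0 passed at ZT0 and 1 was higher at ZT12. Skeletal muscle markers were higher for 2 of 4 tested genes at each time, with sums at ZT12 of 748 to 3006 CPM in CardioGRKO and 286 to 759 CPM in GRflox; Myh4 was at 0 in CardioGRKO at ZT0. That sum was almost wholly Acta1, a skeletal actin that cardiomyocytes also express, with means of 2095 CPM in CardioGRKO and 561 CPM in GRflox at ZT12. The other called gene was Tnnt3 at ZT0 and Mylpf at ZT12, and Mylpf, Tnni2 and Tnnt3 averaged from 0.449 to 2.0 CPM in the 4 groups. Pericyte and smooth muscle markers gave 1 higher and 3 lower of 9 at ZT0, with Acta2 at 1.14 and Tagln at -0.47 on the log2 scale, and 1 higher and 1 lower at ZT12, with Acta2 at 0.93 and Rgs5 at -0.22. Of 5 atrial markers only Nppa was higher, by 1.52 at ZT0 and 1.31 at ZT12. The other atrial markers had log2 fold changes below 0 without passing, and the median of the 5 was -0.58 at ZT0 and -0.79 at ZT12. No macrophage marker of 10 passed at either time (unadjusted p under 0.05 for 0 at ZT0 and 1 at ZT12 by edgeR). In whole tissue, fewer cells of a type and less RNA per cell cannot be told apart, and the part of the markers in the values of Hspb7, Hspa9 and Hspb8 was not tested.

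Further chaperones outside the 32 gave 9 higher and 3 lower of 72 in CardioGRKO at ZT0, where 14.7% of all genes tested passed. At ZT12 they gave 9 higher and 4 lower, where 21.1% of all genes passed. Among them Hspa1l rose by 0.75 ± 0.17 at ZT0 and 0.80 ± 0.17 at ZT12 (adjusted p = 0.00364 and 0.00133 by edgeR). The BAG family cochaperone Bag2 rose by 0.47 at both times, and the HSP40 gene Dnaja4 by 0.40. Fkbp5, a glucocorticoid-induced relative of Fkbp4, averaged 26.7 CPM in CardioGRKO and 50.1 CPM in GRflox at ZT12 (log2 fold change -0.91 ± 0.23, adjusted p = 0.00531 by edgeR), whereas Fkbp4 averaged 636 ± 60.3 CPM and 614 ± 48.6 CPM in the same groups and did not pass. In a separate list of 11 other temperature-related RNA-binding genes, 0 were higher and 2 lower at each time. The lowest was Csdc2, which encodes a cold shock domain protein, with log2 fold changes of -2.10 at ZT0 and -2.35 at ZT12 (28.8 CPM in CardioGRKO and 125 CPM in GRflox at ZT0).

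**Figure D4:**
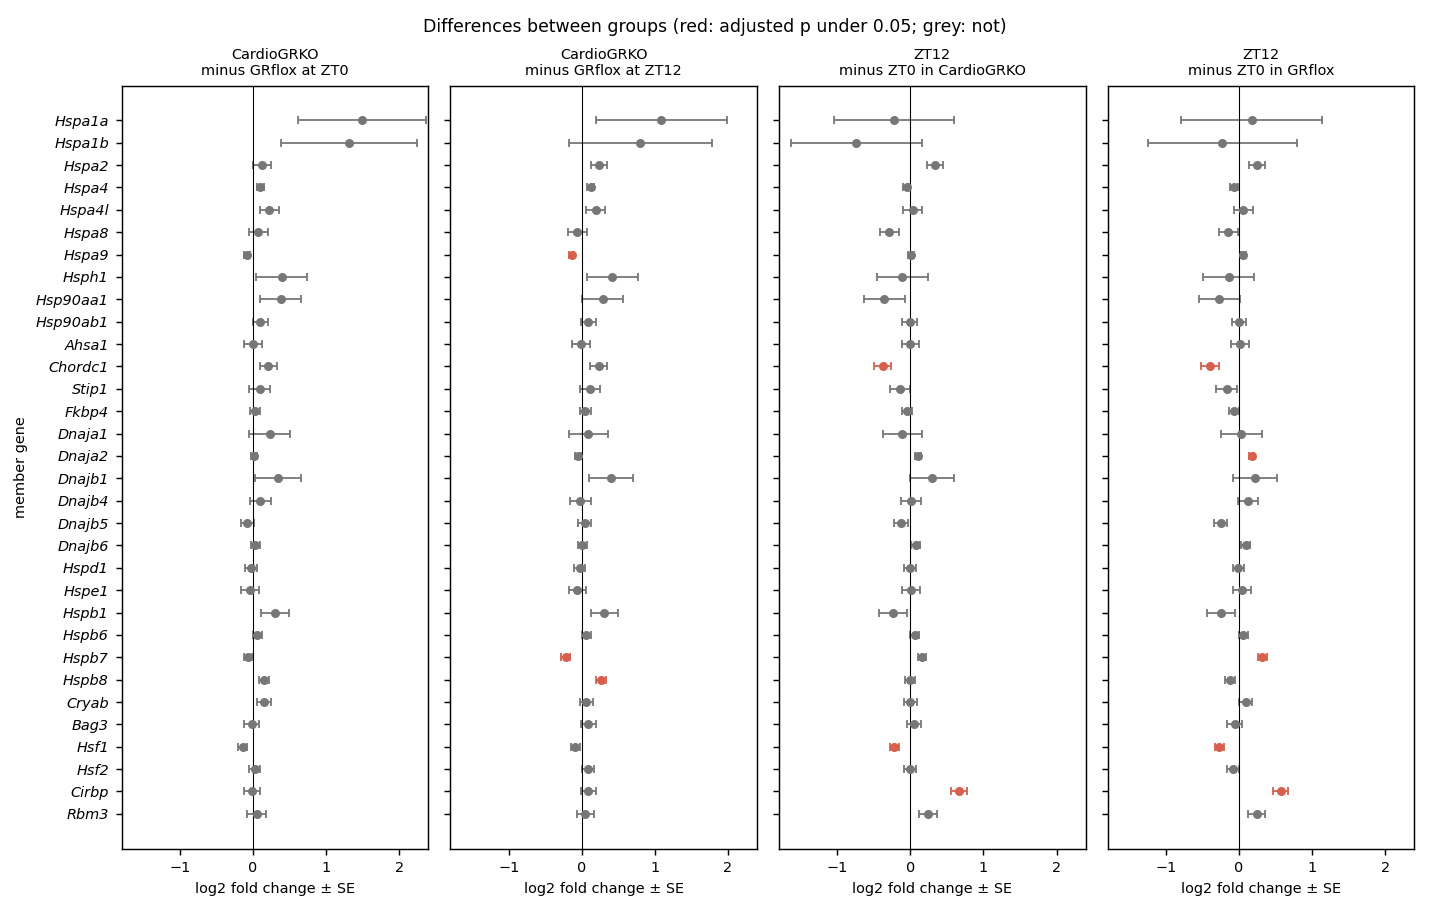
Log2 fold changes with SE (x axis) of the 32 genes (y axis, in class order) for CardioGRKO minus GRflox at ZT0 and ZT12 and for ZT12 minus ZT0 in CardioGRKO and GRflox, with red points for adjusted p under 0.05. The bars of Hspa1a and Hspa1b are the widest, and Cirbp has the largest called values, 0.67 and 0.57.

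Between the times, Cirbp had the largest called change. Cirbp had 36.6, 52.6, 37.7, 33.8 and 44.4 CPM at ZT12 and 32.9, 25.6, 24.1, 23.9 and 24.2 CPM at ZT0 in CardioGRKO. In GRflox it had 35.8, 41.4, 39.5, 32.6 and 42.3 CPM at ZT12 and 25.2, 26.8, 22.9, 25.3 and 28.9 CPM at ZT0. No ZT0 library reached the ZT12 libraries of its genotype. Cirbp rose by 0.67 ± 0.11 on the log2 scale in CardioGRKO (adjusted p = 0.00015 by edgeR) and by 0.57 ± 0.10 in GRflox (adjusted p = 0.000392 by edgeR), and the 2 rises differed by 0.10 ± 0.15 (interaction adjusted p = 0.969 by edgeR).

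Rbm3, its cold-inducible relative, averaged 47.9 ± 10.6 CPM at ZT12 and 40.8 ± 3.60 CPM at ZT0 in CardioGRKO, and 46.1 ± 6.37 CPM at ZT12 and 39.1 ± 5.13 CPM at ZT0 in GRflox (SD, n = 5 each). The times overlapped in both genotypes. The log2 difference was 0.24 ± 0.12 in each, which did not pass (adjusted p = 0.273 in CardioGRKO and 0.205 in GRflox by edgeR).

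In CardioGRKO 3 of the 32 passed between the times, where 9.17% of all genes did, and in GRflox 5, where 17.3% did. The median log2 difference of the 32 was -0.01 in CardioGRKO and 0.00 in GRflox, beside 0.00 and 0.01 over all genes. Cell type markers also differed between the times. Of 12 endothelial markers, 2 were higher and 5 lower at ZT12 in CardioGRKO and 1 higher and 6 lower in GRflox, with Cldn5 at -1.40 and Kdr at -0.67 in CardioGRKO and Cldn5 at -0.92 and Kdr at -0.78 in GRflox. Of 11 cardiomyocyte markers, 1 was lower in CardioGRKO (Actc1, -0.15) and 2 higher in GRflox (Ttn, 0.64, and Ryr2, 0.22). Of 10 macrophage markers, 1 was higher in CardioGRKO and 2 in GRflox, with Cd163 at 0.81 and 0.52, and of 9 pericyte and smooth muscle markers 2 were higher in CardioGRKO (Myh11, 0.41, and Tagln, 0.33) and 0 in GRflox (2 at an unadjusted p under 0.05 by edgeR). Of 10 fibroblast markers, 0 passed in CardioGRKO (1 at an unadjusted p under 0.05 by edgeR) and 2 were lower in GRflox. The part of the markers in the values of the 32 genes was not tested.

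Hsf1, the main heat shock transcription factor, was lower at ZT12 in both genotypes. It had 50.3, 43.2, 48.2, 53.5 and 44.2 CPM at ZT12 and 47.9, 55.1, 60.3, 57.7 and 56.4 CPM at ZT0 in CardioGRKO, with overlap through replicate 1 at ZT0, and 50.5, 46.4, 56.6, 51.5 and 50 CPM at ZT12 and 58.3, 64.1, 63.4, 62.3 and 59.1 CPM at ZT0 in GRflox, without overlap. Hsf1 fell by 0.22 on the log2 scale in CardioGRKO (-0.22 ± 0.06, adjusted p = 0.0302 by edgeR) and by 0.27 in GRflox (-0.27 ± 0.06, adjusted p = 0.00445 by edgeR). With all libraries thinned to the depth of the shallowest, the value in CardioGRKO was -0.14 (adjusted p = 0.395 by edgeR). It also missed the threshold without replicate 3 or 4 of CardioGRKO at ZT0, without replicate 2 or 5 of CardioGRKO at ZT12 and when only the 2 groups were fitted (adjusted p = 0.0607 to 0.0831 by edgeR).

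Chordc1 was also lower at ZT12. It had 55.7, 46.2, 59.5, 56.9 and 46.3 CPM at ZT12 and 64.4, 88.2, 65.4, 62.5 and 62.3 CPM at ZT0 in CardioGRKO, and 56.7, 40.2, 40.2, 50 and 39.0 CPM at ZT12 and 56.1, 61.7, 74.8, 50.8 and 53.2 CPM at ZT0 in GRflox. The times did not overlap in CardioGRKO and overlapped in GRflox. The log2 difference was -0.38 ± 0.12 in CardioGRKO (adjusted p = 0.045 by edgeR) and -0.40 ± 0.12 in GRflox (adjusted p = 0.0224 by edgeR). In CardioGRKO 6 of the 20 fits that left out 1 library missed the threshold, with -0.27 (adjusted p = 0.144 by edgeR) without replicate 2 at ZT0, and in GRflox 4 of 20 did, with -0.30 (adjusted p = 0.0841 by edgeR) without replicate 3 at ZT0.

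In GRflox, Hspb7 and Dnaja2 rose at ZT12 as well. Hspb7 had 4759, 5317, 5697, 5493 and 5017 CPM at ZT12 and 4153, 4219, 4232, 4410.4 and 4065 CPM at ZT0, without overlap (log2 difference 0.32 ± 0.06, adjusted p = 0.000475 by edgeR). Dnaja2, an HSP40 partner of constitutive HSP70, had 326, 317, 319, 343 and 327 CPM at ZT12 and 287, 298, 309.6, 264 and 293 CPM at ZT0, again without overlap (0.17 ± 0.04, adjusted p = 0.0105 by edgeR). In CardioGRKO the same differences were 0.16 ± 0.06 for Hspb7 (adjusted p = 0.0905 by edgeR) and 0.10 ± 0.04 for Dnaja2 (adjusted p = 0.175 by edgeR), neither past the threshold. The interaction was -0.15 ± 0.08 for Hspb7 (adjusted p = 0.879 by edgeR) and -0.07 ± 0.06 for Dnaja2 (adjusted p = 0.944 by edgeR), so a difference between the genotypes in these rises was not shown.

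**Figure D5:**
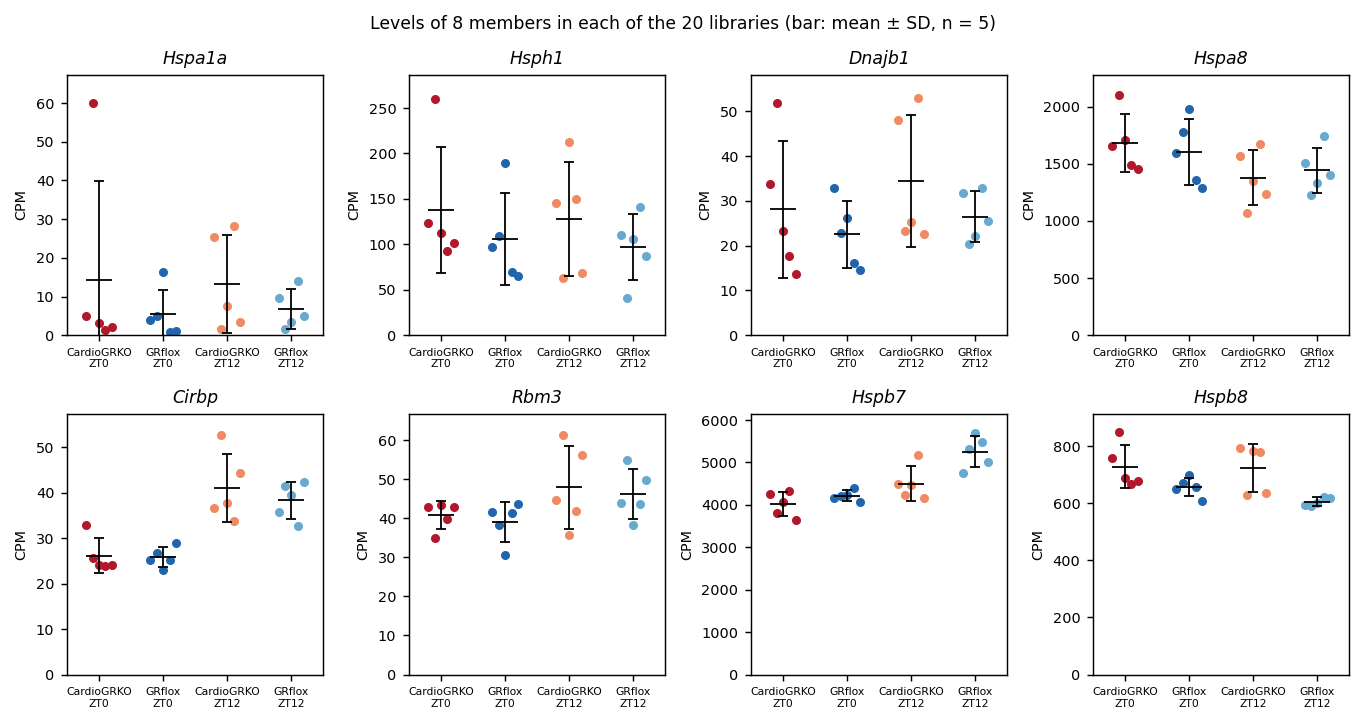
CPM of 8 genes (y axes) in each of the 20 libraries by group (x axis), with bars for the mean and SD of 5 libraries (cut at 0 for Hspa1a). Cirbp separates the times in both genotypes, Hspb8 separates the genotypes at ZT12, and Hspa1a has 1 library at 60.0 CPM in CardioGRKO at ZT0.

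Hspa8, the constitutive HSP70, missed the threshold between the times. Hspa8 averaged 1379.6 ± 244 CPM at ZT12 and 1682 ± 257 CPM at ZT0 in CardioGRKO, and 1442 ± 199 CPM at ZT12 and 1602 ± 288 CPM at ZT0 in GRflox (SD, n = 5 each). Its log2 differences of -0.29 ± 0.13 and -0.15 ± 0.13 did not pass (adjusted p = 0.174 and 0.458 by edgeR). With the log2 level of Hspa1a plus Hspa1b of each library as a further term, an alternative chosen after the data had been seen, the values of Hspa8 were -0.36 in CardioGRKO (adjusted p = 9.65e-06 by edgeR) and -0.21 in GRflox (adjusted p = 0.00199 by edgeR). Hsp90aa1 gave -0.49 in CardioGRKO and -0.37 in GRflox in the same fit (adjusted p = 0.0018 and 0.0085 by edgeR), against -0.36 ± 0.28 and -0.27 ± 0.28 without the term. In GRflox that fit also called Stip1 (-0.23), Dnajb5 (-0.28), Hspb1 (-0.34), Hspb8 (-0.15) and Rbm3 (0.28, adjusted p = 0.036 by edgeR). In CardioGRKO it also called Hspb1 (-0.34, adjusted p = 0.0286 by edgeR). Between the genotypes at ZT12 it also called Chordc1 (0.19, adjusted p = 0.0462 by edgeR). None of these passed without the term.

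The difference between the genotypes in the change over time passed for 0 of the 32, where 0.186% of all genes did; 0 had an unadjusted p under 0.05, and DESeq2 called 0. The interval of 2 SE around the interaction was widest for Hspa1b, from -3.23 to 2.20, and ran from -0.20 to 0.40 for Cirbp and from -0.13 to 0.23 for Hsf1. Of the 72 further chaperones, 3 were higher and 6 lower at ZT12 in CardioGRKO, where 9.17% of all genes passed. In GRflox 3 were higher and 8 lower, where 17.3% of all genes passed. Hspa5, the HSP70 of the endoplasmic reticulum, had log2 differences of -0.54 in CardioGRKO and -0.59 in GRflox, and Fkbp5 rose by 1.76 in CardioGRKO and 1.70 in GRflox (all called by edgeR).

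Further genes came close to the threshold without passing. The HSP110 relative Hspa4 averaged 252 ± 18.2 CPM in CardioGRKO and 233 ± 14.2 CPM in GRflox at ZT12, a log2 difference of 0.12 ± 0.05 that missed the threshold (adjusted p = 0.126 by edgeR). Hspa2 averaged 12.5 ± 1.42 CPM at ZT12 and 9.92 ± 1.80 CPM at ZT0 in CardioGRKO (0.34 ± 0.11, adjusted p = 0.0619 by edgeR). Dnajb5, an HSP40 of striated muscle and brain, averaged 154 ± 13.1 CPM at ZT12 and 183 ± 24.8 CPM at ZT0 in GRflox (-0.25 ± 0.09, adjusted p = 0.0656 by edgeR). For each of these 3 the groups overlapped. Of 31 alternatives, 5 called Hspa2 in CardioGRKO, DESeq2 among them (adjusted p = 0.0334 by DESeq2), and 7 called Dnajb5 in GRflox. Hsf2 ranged from 12.4 to 17.3 CPM and Hspb6 from 2376 to 3077 CPM over all libraries, with no call in any comparison.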

How the data were processed

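Left ventricular RNA of 20 libraries was measured by poly(A) RNA-seq with paired-end reads of 75 bases. The authors deposited raw counts of reads per gene. STAR 2.5.1, Subread 1.5.1 with its program featureCounts, and DESeq2 1.38.3 are named for build mm10, per the submitters' processing notes. The sources used here do not give the handling of strand, annotation and reads matching several genes. Lines of 1 gene were summed, giving 24059 genes. The column heading of the shallowest library starts with another number than the other 19 headings share, and its meaning is unknown.

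The members and gene lists were chosen with earlier results of these data known. All 32 members are named; of each other list, at most the 4 genes of smallest p in a comparison. Groups came from the labels. In edgeR 4.0.16 (R 4.3.3) quasi-likelihood F-tests were fitted to group means of all 20 libraries, with TMM factors of 0.961 to 1.04 and filterByExpr (minimum count 10, minimum total 15), leaving 14007 genes. Adjusted p-values are Benjamini-Hochberg over all genes tested, with a threshold of 0.05, and each SE is the log2 change divided by the root of its F value. CPM are scaled by TMM. The slope test added the log2 level of Hspa1a plus Hspa1b (prior count 2), centred within groups, and left out these 2 genes. Alternatives used DESeq2 1.42.0, limma 3.58.1 (voom), other factors, filters, depths and libraries. The code was tested on simulated data. Shared sequence was measured as 75-base windows of GENCODE transcripts (GRCm38) found in transcripts of other genes. Replicates differed by more than sampling noise in every group (chi-square per gene 4.22 to 21). Figures used matplotlib 3.10.9 in Python 3.11.15.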

Additional observations from a re-analysis of the deposited data

Results flagged for a closer look

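In groups of 5 libraries, a library was singled out where its gap to the nearest other exceeded 0.71 of the range of the group. Chance singles out about 1 in 20 groups of normally distributed values, and 18 of 128 were here. Gaps were taken on the CPM scale, where that share need not hold. The members share libraries and move together, so the 128 groups are not independent. In CardioGRKO at ZT0, replicate 2 was far above the other 4 for 10 genes: Hspa1a with 60.0 CPM, Hspa1b with 71.2 CPM, Hsph1 with 259.7 CPM, Hsp90ab1 with 3061 CPM, Chordc1 with 88.2 CPM, Stip1 with 261 CPM, Dnaja1 with 143 CPM, Dnajb4 with 201 CPM, Hspb1 with 294 CPM and Cryab with 2882 CPM. In GRflox at ZT0, replicate 3 stood above the others for Hspa1a with 16.3 CPM and Hspa1b with 22.8 CPM.

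In CardioGRKO at ZT12, replicate 3 stood above the others for the mitochondrial pair Hspd1, with 551 CPM, and Hspe1, with 109 CPM. In CardioGRKO at ZT0, replicate 5 was lowest for Dnajb6, with 46.4 CPM, and highest for Hsf2, with 17.3 CPM. In the same group, the shallowest library, replicate 1, was highest for Cirbp, with 32.9 CPM. Replicate 2 of GRflox at ZT12 was lowest for Hspa4l, with 41.7 CPM.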

How the results depend on the processing

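Called in all 31 alternatives of their comparison were Hspb7 and Hspb8 between genotypes at ZT12, Cirbp between times in both genotypes, and Hspb7, Hsf1 and Dnaja2 between times in GRflox. The slopes of Hspa8, Hsp90aa1, Dnaja1, Dnajb1 and Hspb1 were also called in all 31. Leaving out each library in turn gave 0 to 0 members at ZT0 and 2 to 3 at ZT12 between genotypes, 1 to 4 between times in CardioGRKO (1 without replicate 3 of CardioGRKO at ZT0, or without replicate 2 or 5 of CardioGRKO at ZT12), 4 to 6 in GRflox, 0 to 0 for the interaction and 17 to 21 for the slope. Over all genes it gave 1636 to 2136, 2498 to 3041, 874 to 1371, 1931 to 2504, 16 to 33 and 423 to 1022 in the same order. Hsp90aa1 between times in GRflox ran from -0.44 to 0.01 across these fits and reversed only without replicate 3 of GRflox at ZT0. Libraries thinned to the depth of the shallowest gave 1932 genes between genotypes at ZT12, 778 between times in CardioGRKO, 1496 in GRflox and 430 for the slope, where fewer reads enter. The interaction gave 69 genes with DESeq2. The level of Hspa1a plus Hspa1b as a term gave 6 members between times in CardioGRKO, 12 in GRflox and 45 genes for the interaction. The slope gave 12 members and 145 genes without the 2 extreme libraries. It gave 504 genes at ZT0 alone, and 6 members and 21 genes at ZT12 alone, with 10 libraries in each fit. Of the member results called in no setting, 143 in all, 79 had another sign in at least 1. The causes of these changes were not tested.

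Whether replicate numbers pair the libraries was not settled. Deviations of libraries with the same number correlated at -0.272 to 0.234 over 30 pairs of libraries (median 0.0295, 8 above 0.1). With different numbers they correlated at -0.3 to 0.316 over 120 pairs (median -0.0046, 19 above 0.1). Of 20 libraries, 7 correlated best with a library of their own number. With the replicate block, 5 members passed between times in CardioGRKO, against 3 without it; Hspa2 and Hspb7 were added (adjusted p = 0.0448 and 0.0311 by edgeR). The block left the other member counts within 1.5 times (0, 3, 6, 0 and 19).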
